A study of Mus musculus with 70 samples.

Results

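The early response of the mouse ulna to a stress fracture was measured 4 h after injury by RNA sequencing. The 5 libraries labelled as right ulnas at 4 h were set against the 9 intact left ulnas of the same table, with every gene included, so 14 of the 67 libraries of the series carry the comparison. A stress fracture is a partial crack made by repeated loading. The same series holds later times in the ulna and a full fracture of the femur, of which the 4 ulnas at 1 d, the 5 femurs at 4 h and the 10 intact femurs are used below.

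All mice were female C57BL/6 aged 12 weeks, with no transgene named in the labels. The injured ulnas came from limbs with the stress fracture at 4 h, and the intact ulnas were left limbs of animals from several times after injury, so they were not untouched mice. Of the 10 intact ulnas in the labels, 9 have a column and 1 was not analysed here, and 2 of the 10 belong to animals of the 4 h group. The columns are not tied to animals, so no limb could be paired with its own control. Each ulna sample was a section of 5 mm around the injury site, frozen after removal of soft tissue, whereas marrow was spun out only of the femurs. The labels call the samples periosteum, but the protocol describes whole bone. Values are RPKM (reads scaled for gene length and library total), scaled here by 1 factor per library, and log2 changes are 4 h minus intact on log2(scaled RPKM + 0.1).

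Damaged tissue first switches on immediate early genes, which are transcribed without new protein synthesis and many of which encode transcription factors. Cytokines and chemokines that draw in neutrophils and monocytes follow. Bone cells add their own signals. Osteocytes, the cells buried in the matrix, secrete sclerostin (Sost), which blocks Wnt signalling, and the osteoblast lineage responds to Wnt ligands and bone morphogenetic proteins by forming bone. Injury also releases glucocorticoids from the adrenal gland, and these act on genes of fuel use and stress protection in many tissues.

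The injured libraries held 14.2 to 16.4 M assigned reads, and the intact libraries 8.12 to 18.3 M. Bone cell markers were present in all libraries, with summed osteocyte markers of 173 to 388 scaled RPKM at 4 h and 259 to 409 in intact ulnas, and summed osteoblast markers of 1028 to 2897 at 4 h and 848 to 3675 in intact ulnas. Markers of other tissues were high as well. The 15 skeletal muscle markers summed to 14015 to 29506 scaled RPKM at 4 h and 14286 to 21773 in intact ulnas, and the 15 neutrophil markers to 3153 to 5581 at 4 h and 3727 to 6533 in intact ulnas. In such bulk samples, fewer cells of a type and less RNA per cell cannot be told apart. Some libraries stood apart. Injured library 5 was the lowest of the injured libraries for 133 of the 193 genes that rose at least 2-fold. Intact library 2 was the highest intact library for 86 of these 193 genes and intact library 1 for 33, so results are also given without these 2 libraries. For lists where no such count is given, leaving them out moved no count of members called by more than 1. These libraries also had the 2 highest sums of osteoblast markers, 3675 and 3160 scaled RPKM against 848 to 2274 in the other 7 intact ulnas, and intact library 2 was the highest intact library for 10 of 11 B cell markers. Of 164 list members called at 4 h, 44 lost the call when some single library was left out, and 22 moved over 1.5 times with an added value of 1 in place of 0.1. Both are given beside the changes printed below.

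Of 20506 genes tested with limma, 1129 rose at 4 h (5.51%) and 1064 fell (5.19%) at an adjusted p under 0.05. Without intact libraries 1 and 2, these counts were 1342 and 1226. Large changes were mostly rises. At least 2-fold, 193 genes rose (0.941%) and 91 fell (0.444%), and at least 4-fold, 40 rose (0.195%) and 6 fell (0.0293%). The 6 large falls were noncoding RNAs, among them the small nucleolar Snord118 and the ribosomal n-R5-8s1. The median log2 change of all genes tested was -0.00. At an unadjusted p under 0.05 by limma, 2328 of the 20506 genes were higher at 4 h and 2365 lower. List counts at an unadjusted p below are to be read beside these. The split of calls depended on scaling, with 51.5% of calls upward as above, 41% upward under upper-quartile scaling (930 higher and 1339 lower) and 32.8% upward with RPKM as deposited (744 higher and 1524 lower). The authors' deposited table called 1538 genes higher and 1333 lower of 16411. Of the genes called here that the authors' deposited table also holds, it called 1040 of 1064 higher and 965 of 1004 lower.

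Metallothioneins, small proteins that bind zinc and copper, gave the largest rise in the limma fit. Mt2 had 614, 891, 1016, 509 and 212 scaled RPKM in the 5 injured ulnas, and a lowest, median and highest value of 7.05, 12.8 and 193 scaled RPKM in the 9 intact ulnas. Every injured library was above every intact one, although injured library 5 and intact library 2 came close. The log2 change of Mt2 was 5.00 ± 0.50 (SE, n = 5 and 9, limma adjusted p = 1.34e-07), a 32.1-fold rise, and it was 5.64 without intact libraries 1 and 2. Its neighbour Mt1 had 913, 1323, 1360, 830 and 336 scaled RPKM at 4 h, and 23.8, 39.4 and 365 as lowest, median and highest in intact ulnas. The groups overlapped at a single point, where injured library 5 lay below intact library 2. Mt1 rose by 4.04 ± 0.41 on the log2 scale (limma adjusted p = 1.90e-07). In the authors' deposited table the log2 changes were 0.86 for Mt2 and 1.03 for Mt1, smaller than here. The order differed there too, with larger changes for Rrad (2.27), Socs3 (2.24) and Wnt1 (2.07) and a smaller one for Fosb (0.47). Beyond the name of the tool, how these changes were estimated was not stated there.

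The promoters of the genes that rose together at 4 h show which short motifs stand near their starts. Windows from 250 bases before to 50 bases after the start were taken from RefSeq on GRCm38.p6, and 20 of the 40 genes that rose at least 4-fold had one. Letters searched on both strands were TGCGCNC or TGCACNC (core of the metal response element, which binds the zinc sensor MTF-1), TGANTCA (AP-1), TGACGTCA (CRE), TTCNNNGAA (STAT), the TATA box as TATAAA and, by name, the NF-kB consensus and the CArG box. Positions count from the annotated start as 0. The first pair below are the metallothionein promoters (chr8:94172368-94172667 and chr8:94178839-94179138, both on the + strand), with matches to the metal response core and AP-1 in capitals. Mt1 lies outside the naming rule for promoters and was chosen after its values were seen.
Mt2: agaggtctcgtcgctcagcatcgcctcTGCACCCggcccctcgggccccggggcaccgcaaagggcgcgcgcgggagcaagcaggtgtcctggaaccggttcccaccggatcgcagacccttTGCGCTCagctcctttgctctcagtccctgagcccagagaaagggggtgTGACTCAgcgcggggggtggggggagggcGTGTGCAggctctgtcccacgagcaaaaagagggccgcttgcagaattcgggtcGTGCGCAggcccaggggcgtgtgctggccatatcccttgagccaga
Mt1: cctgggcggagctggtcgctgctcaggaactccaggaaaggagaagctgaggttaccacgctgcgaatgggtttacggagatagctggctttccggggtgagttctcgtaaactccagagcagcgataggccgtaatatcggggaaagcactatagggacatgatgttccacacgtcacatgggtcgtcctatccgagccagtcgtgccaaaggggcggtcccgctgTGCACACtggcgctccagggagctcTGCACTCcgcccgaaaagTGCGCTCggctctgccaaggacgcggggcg
Mt2 held 4 metal response cores, starting at -223, -128, -50 and 4, and an AP-1 match at -79, while Mt1 held 3 cores, starting at -23, 2 and 20. No match overlapped another. The metal response core is common, being present in 25.7% of 32851 promoter windows and in 5 of the 20.

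Other genes of metal and oxidant handling rose as well. Mt2 itself stands in the metal, glucocorticoid and muscle damage lists. Other called genes also recur across lists, such as Tnfsf11, Angptl4 and Thbs1, so the counts of different lists are not independent. In all, 8 of the 12 tested members of the metal and oxidant list rose and none fell, with a median log2 change of 0.60, against -0.00 for all genes. Slc39a14, a zinc importer, rose by 1.71 ± 0.22 (limma adjusted p = 5.90e-06). Srxn1, which repairs oxidized peroxiredoxins, had 37.6, 60.7, 30.5, 19.7 and 27.3 scaled RPKM at 4 h, and 9.52, 10.4 and 11.7 as lowest, median and highest in intact ulnas. The groups did not overlap, and the log2 change was 1.63 ± 0.15 (limma adjusted p = 6.38e-08). Hmox1, which breaks down heme, rose by 0.60 ± 0.18 (limma adjusted p = 0.028), a call lost with RPKM as deposited (0.0564), without injured library 1 (0.16) and without intact library 7 (0.0505). Txnrd1, a thioredoxin reductase, rose by 0.59 ± 0.08 (limma adjusted p = 4.61e-06).

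**Figure D1:**
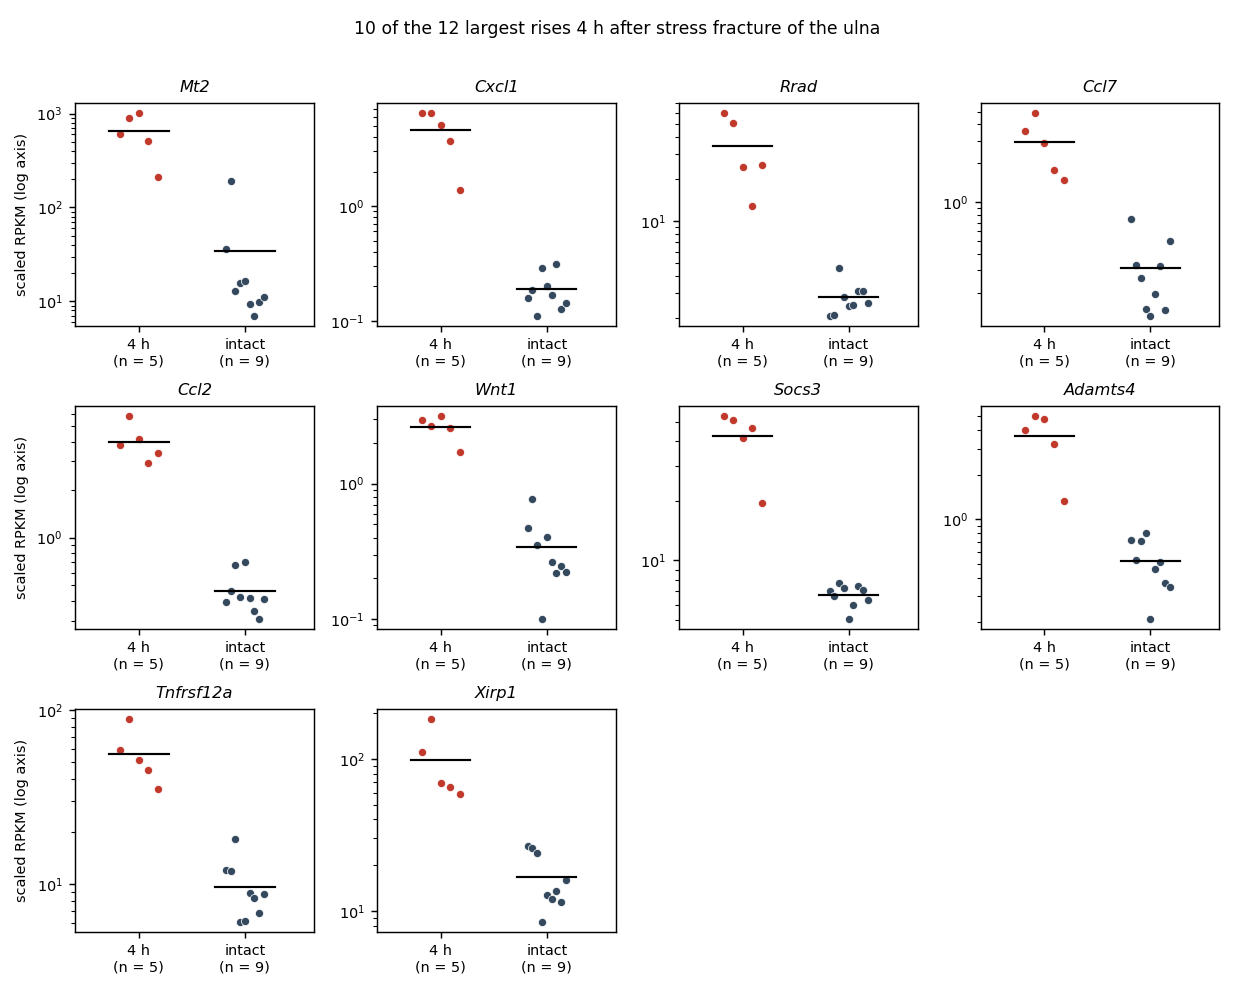
Scaled RPKM (log axis) of 10 of the 12 largest rises among called genes without overlap of the groups and with a mean of at least 2 scaled RPKM. Each dot is a library, with ulnas 4 h after stress fracture (n = 5) left of intact ulnas (n = 9) and black lines at group means. The absence of overlap was a condition of the choice. The mean of Mt2 is 648 scaled RPKM at 4 h and 34.6 in intact ulnas.

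The 12 largest rises without overlap of the groups, shown in the dot plot of rising genes, spanned log2 changes of 2.50 to 5.00. After Mt2 they included 3 chemokines, namely Cxcl1, Ccl7 and Ccl2. Rrad, a small GTPase that restrains calcium channels and is expressed in muscle, followed Cxcl1 with 59.6, 50.3, 24.4, 12.7 and 25.3 scaled RPKM at 4 h, and 2.08, 2.58 and 4.56 as lowest, median and highest in intact ulnas. Its lowest injured library, library 4, was well above the highest intact one, and the log2 change was 3.39 ± 0.34 (limma adjusted p = 1.33e-07). Wnt1, Socs3, Adamts4, Tnfrsf12a and Xirp1 were also among the 12. Injured library 5 was the lowest injured library for 10 of the 12 and library 4 for the other 2.

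The chemokine that rose most was Cxcl1, a ligand of the neutrophil receptor CXCR2. It had 6.42, 6.47, 5.05, 3.68 and 1.37 scaled RPKM at 4 h, and 0.111, 0.169 and 0.313 as lowest, median and highest in intact ulnas. All injured libraries were above all intact ones, with library 5 lowest. The log2 change was 3.88 ± 0.27 (limma adjusted p = 2.45e-10), and the counts behind it were 39 to 181 reads at 4 h and 2 to 9 reads in intact ulnas. Cxcl2, a ligand of the same receptor, stayed low, with 0.192 to 0.740 scaled RPKM at 4 h and 0 to 0.174 in intact ulnas, and its log2 change was 1.74 ± 0.35 (limma adjusted p = 0.00107). Of 8 neutrophil chemokine genes 5 passed the filter on low values, and these 2 rose while none fell. With an added value of 1, the log2 changes were 2.13 for Cxcl1 and 0.47 for Cxcl2.

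Some monocyte chemokines rose as well. Ccl2 had 3.80, 5.79, 4.13, 2.92 and 3.37 scaled RPKM at 4 h, and 0.310, 0.417 and 0.707 as lowest, median and highest in intact ulnas. Ccl7 had 3.57, 4.9, 2.90, 1.79 and 1.49 at 4 h, and 0.134, 0.261 and 0.743 in intact ulnas. Neither gene overlapped between the groups. Their log2 changes were 2.87 ± 0.31 for Ccl2 (limma adjusted p = 4.56e-07) and 2.89 ± 0.44 for Ccl7 (limma adjusted p = 4.50e-05). Both encode ligands of CCR2, the receptor that brings monocytes out of marrow. Of 14 genes of this list 6 rose and none fell, among them the ligands Ccl9 and Ccl6 and the receptor Ccr1, by 0.47 to 0.75. The call was lost for Ccl9 without injured library 1 (limma adjusted p = 0.0518) and for Ccl6 without each of 6 single libraries (up to 0.151, without injured library 1) and with RPKM as deposited (0.0821). With an added value of 1, Ccl2 changed by 1.76 and Ccl7 by 1.53. Among 7 other CXC chemokine genes limma called none, and 1 was higher at an unadjusted p under 0.05.

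Interleukin 6, which drives the acute phase response, was low. Il6 had 1.04, 1.07, 0.805, 0.723 and 0.218 scaled RPKM at 4 h, and 0, 0.0550 and 0.215 as lowest, median and highest in intact ulnas. Injured library 5 only just exceeded intact library 2, and the log2 change was 2.34 ± 0.36 (limma adjusted p = 4.81e-05), or 0.71 with an added value of 1. In the same family Osmr, the oncostatin M receptor, rose by 1.36 ± 0.14 (limma adjusted p = 2.31e-07), and the ligands Clcf1 and Lif rose by 0.78 and 0.75. Il11ra1 fell by 0.43, so 4 of 12 rose and 1 fell, against 6 risen without intact libraries 1 and 2. The calls of Lif and Il11ra1 were lost without injured library 1 (limma adjusted p = 0.0605 and 0.0783), that of Lif also without injured library 2 (0.0547) and that of Il11ra1 without injured library 5 (0.0583). Lif changed by 0.32 with an added value of 1.

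Among interleukin 1 and tumour necrosis factor genes the 2 largest rises were in receptors, followed by the ligand Tnfsf11 (RANKL) at 1.42. Of 15 tested, 8 rose and none fell, with a median log2 change of 0.59. Tnfrsf12a, the receptor for TWEAK, had 59.1, 88.7, 51.5, 45.1 and 35.3 scaled RPKM at 4 h, and 6.09, 8.73 and 18.2 as lowest, median and highest in intact ulnas, with no overlap and a log2 change of 2.54 ± 0.33 (limma adjusted p = 6.11e-06). The decoy receptor Il1r2 rose by 1.73 ± 0.32 and the receptor antagonist Il1rn by 1.19 ± 0.20. Il1b itself had 9.34, 9.16, 5.13, 4.26 and 4.16 scaled RPKM at 4 h, and 2.38, 3.80 and 5.43 in intact ulnas. The groups overlapped, and its log2 change was 0.73 ± 0.24 (limma adjusted p = 0.0494, and 0.0819 without intact libraries 1 and 2). The call of Il1b was also lost without each of 9 single libraries (up to 0.191, without injured library 1), with RPKM as deposited (0.0831) and under upper-quartile scaling (0.0611). Ptgs2, the inducible enzyme of prostaglandin synthesis, had 2.15, 2.66, 2.54, 2 and 0.548 scaled RPKM at 4 h, and 0.104, 0.183 and 0.244 in intact ulnas. It did not overlap and rose by 2.78 ± 0.27 (limma adjusted p = 1.08e-07), or by 1.28 with an added value of 1, as the 1 gene called among 12 of prostaglandin synthesis and response (2 higher and 1 lower without intact libraries 1 and 2).

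The feedback inhibitor Socs3, which is induced by STAT3 and damps signalling of the interleukin 6 family, was among the most marked. It had 53.3, 50.6, 41.5, 46.3 and 19.5 scaled RPKM at 4 h, and 5.10, 7.02 and 7.71 as lowest, median and highest in intact ulnas. Library 5 was again the lowest injured library, far from the other 4 but above every intact one, and the log2 change was 2.56 ± 0.18 (limma adjusted p = 2.98e-10). In its list 6 of 14 rose and none fell, with a median of 0.29. Bcl3 rose by 1.28 ± 0.18, and Zfp36, which destabilizes cytokine mRNAs, by 0.85 ± 0.10. The promoters of Cxcl1 (chr5:90890995-90891294, + strand), Il6 (chr5:30012864-30013163, + strand) and Socs3 (chr11:117969317-117969616, - strand) follow, with NF-kB, AP-1 and STAT matches in capitals.
Cxcl1: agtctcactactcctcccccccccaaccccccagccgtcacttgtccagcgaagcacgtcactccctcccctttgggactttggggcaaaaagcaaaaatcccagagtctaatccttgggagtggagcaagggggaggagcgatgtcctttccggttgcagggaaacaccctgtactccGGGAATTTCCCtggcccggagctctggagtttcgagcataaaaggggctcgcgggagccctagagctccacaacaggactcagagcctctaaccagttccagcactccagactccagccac
Il6: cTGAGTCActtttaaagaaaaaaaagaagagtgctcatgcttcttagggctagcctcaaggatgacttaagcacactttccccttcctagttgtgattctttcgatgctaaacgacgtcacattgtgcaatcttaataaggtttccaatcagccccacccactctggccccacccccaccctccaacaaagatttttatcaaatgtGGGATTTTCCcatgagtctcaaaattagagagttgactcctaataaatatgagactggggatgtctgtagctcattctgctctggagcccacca
Socs3: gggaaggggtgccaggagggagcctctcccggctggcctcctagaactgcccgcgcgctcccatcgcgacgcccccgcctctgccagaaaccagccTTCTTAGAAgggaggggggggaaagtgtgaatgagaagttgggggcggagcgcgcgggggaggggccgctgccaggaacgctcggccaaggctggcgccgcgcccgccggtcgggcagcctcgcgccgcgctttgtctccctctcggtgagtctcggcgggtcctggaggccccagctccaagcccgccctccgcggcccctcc
In Cxcl1 the capitals are 2 overlapping NF-kB matches, the first from -71 to -62 and the next from -70 to -61. In Il6 they are an AP-1 match starting at -249 and an NF-kB match from -44 to -35, and in Socs3 a STAT match from -154 to -146. The NF-kB consensus was present in 4.51% of all windows and in 3 of the 20, the AP-1 letters in 7.81% and 2, and the STAT letters in 8.3% and 3. The CRE letters were present in 1.79% and 1, the TATA box in 13.6% and 1, and the CArG box in 1.63% and none. Percentages count windows, while the 20 are genes, each counted if any of its windows held a match. The matches are of letters and show no binding.

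Immediate early genes rose. All 8 tested genes of the AP-1 and ATF list rose, with a median log2 change of 1.67, and 17 of 20 genes of the Egr and Nr4a list rose and none fell, with a median of 0.75. Atf3, a stress-induced repressor of the ATF family, had 25, 33.8, 16.0, 10.7 and 8.32 scaled RPKM at 4 h, and 1.64, 2.86 and 6.01 as lowest, median and highest in intact ulnas, without overlap and with a log2 change of 2.43 ± 0.37 (limma adjusted p = 3.88e-05). Fos had 25.6, 20.5, 22.7, 16.9 and 9.78 scaled RPKM at 4 h, and 4.28, 5.01 and 9.36 in intact ulnas. Injured library 5 was just above intact library 4, and the log2 change of Fos was 1.68 ± 0.20 (limma adjusted p = 1.63e-06). Junb rose by 1.66 ± 0.15 and Fosl1 by 1.71 ± 0.21, also without overlap. Fosb had 5.07, 3.76, 4.20, 1.49 and 1.23 scaled RPKM at 4 h, and 0.0396, 0.480 and 3.96 in intact ulnas. It overlapped because intact library 4 was high, and its log2 change was 2.21 ± 0.45 (limma adjusted p = 0.00137), or 1.23 with an added value of 1.

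In the Egr and Nr4a list the orphan nuclear receptor Nr4a3 had the largest change, 2.21 ± 0.42 (limma adjusted p = 0.000726), or 1.45 with an added value of 1. Its injured values were 4.30, 5.99, 3.71, 5.29 and 3.92 scaled RPKM, and its lowest, median and highest intact values 0.349, 0.648 and 7.19. Intact library 1 alone exceeded the injured libraries. Maff rose by 1.96 ± 0.21, Egr1 by 1.84 ± 0.23 and Arc by 1.62 ± 0.23, each without overlap. Inhibitors of MAP kinase signalling rose too, with 9 of 15 higher and none lower and a median of 0.56. Without intact libraries 1 and 2, 9 were higher and Dusp10 was lower, by 0.61 (limma adjusted p = 0.00435). Dusp5, a phosphatase of nuclear ERK, rose by 1.57 ± 0.18 and Dusp6, a phosphatase of cytosolic ERK, by 0.68 ± 0.09.

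**Figure D2:**
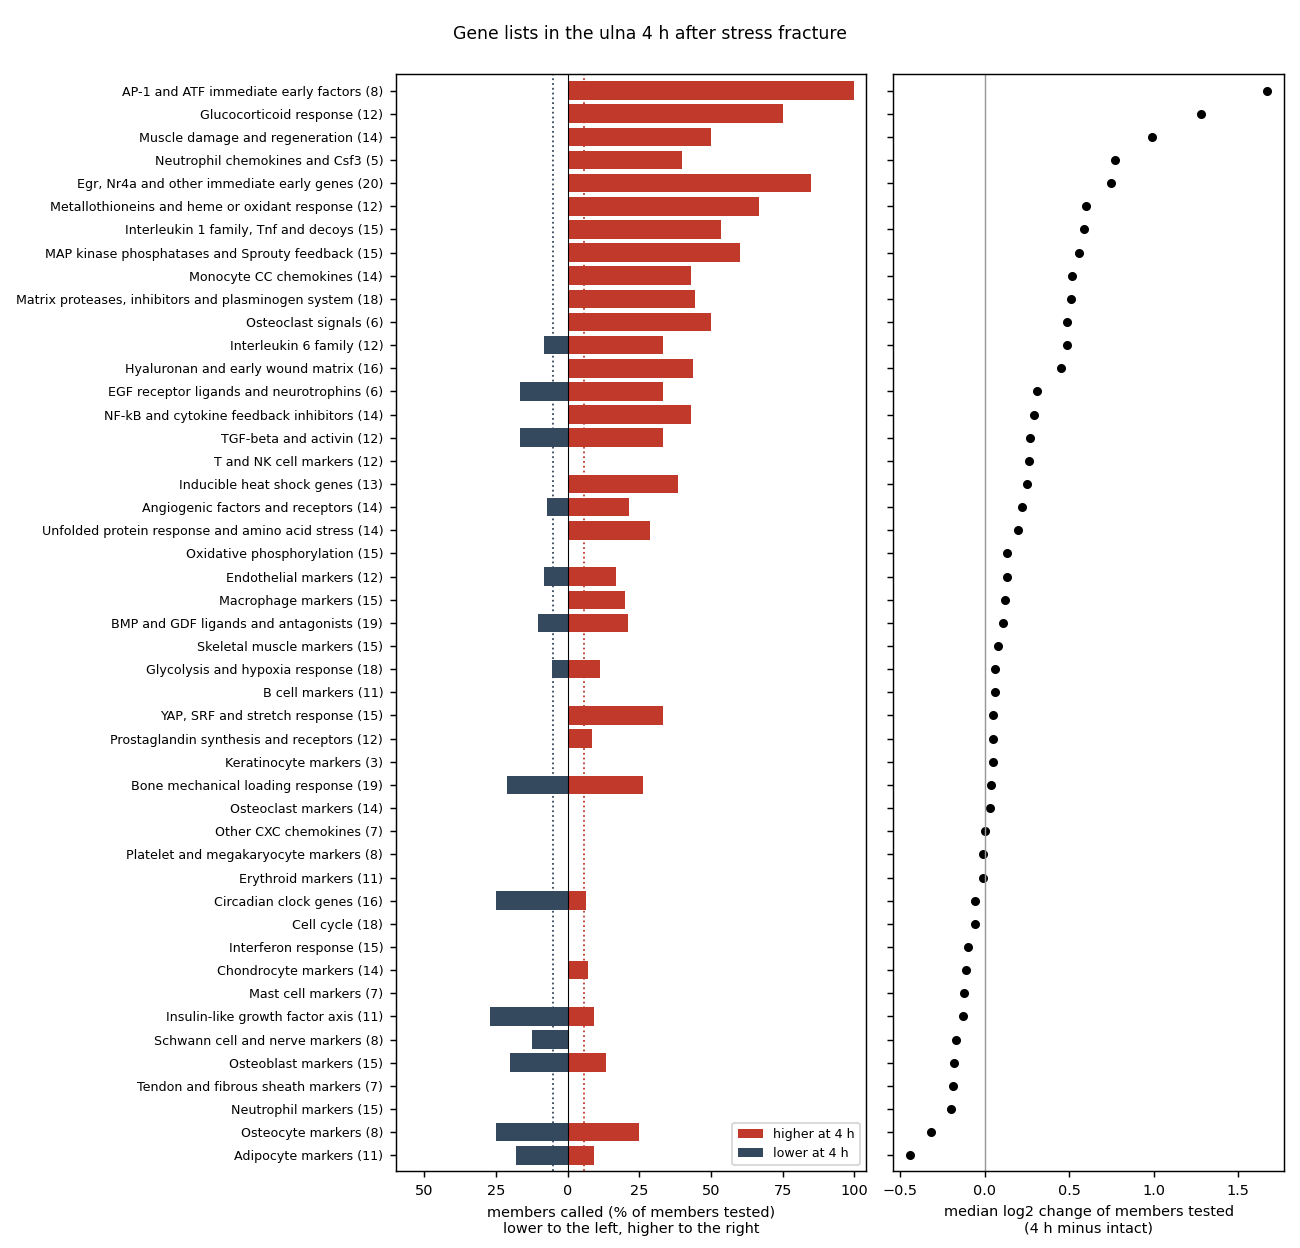
Share of tested members called higher (right) or lower (left) at 4 h than in intact ulnas for each of 47 gene lists, with the number tested in brackets and dotted lines at 5.51% and 5.19%, the shares over all genes, and, in the right panel, the median log2 change. The AP-1 list stands at 100% higher, and the neutrophil, lymphocyte, erythroid, platelet and mast cell lists lie between medians of -0.20 and 0.26.

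Bone signals changed in both directions. Wnt1, a ligand for which loss of function causes bone fragility, had 2.94, 2.65, 3.16, 2.57 and 1.72 scaled RPKM at 4 h, and 0.101, 0.266 and 0.770 as lowest, median and highest in intact ulnas. The groups stood well apart, and Wnt1 rose by 2.71 ± 0.30 (limma adjusted p = 6.45e-07), or by 1.43 with an added value of 1. Wnt7b, another ligand that promotes bone formation, rose by 1.55 ± 0.22 (limma adjusted p = 1.38e-05), or by 0.77 with an added value of 1. Hbegf, a ligand of the EGF receptor, rose by 1.98 ± 0.22 (limma adjusted p = 4.95e-07).

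The secreted Wnt antagonists Sost and Dkk1 fell. Sost had 89.6, 47.4, 70.2, 70.1 and 49.3 scaled RPKM at 4 h, and 126, 153 and 197 as lowest, median and highest in intact ulnas. Dkk1 had 4.38, 2.95, 3.45, 3.43 and 3.24 scaled RPKM at 4 h, and 6.10, 9.5 and 13.6 in intact ulnas. Every injured library was below every intact one for both genes. Their log2 changes were -1.27 ± 0.16 for Sost (limma adjusted p = 3.52e-06) and -1.40 ± 0.18 for Dkk1 (limma adjusted p = 3.01e-06). The ligands Wnt5a and Wnt16 also fell, by 0.98 and 0.48, and the call for Wnt16 was lost without intact libraries 1 and 2 (limma adjusted p = 0.125) and without each of 8 single libraries (up to 0.151, without injured library 1). In the list of genes known to respond to loading, 5 of 19 rose and 4 fell, with a median of 0.04.

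Osteocyte genes did not move as a block. Dmp1, an osteocyte phosphoprotein that governs mineralization, had 149, 154, 179, 102 and 59.3 scaled RPKM at 4 h, and 28.2, 34.5 and 55.3 as lowest, median and highest in intact ulnas. The groups did not overlap, and Dmp1 rose by 1.77 ± 0.21 (limma adjusted p = 1.89e-06), while Sost, also an osteocyte gene, fell. Of 8 osteocyte markers, Dmp1 and Pdpn rose and Sost and Irx5 fell. Of 15 osteoblast markers, Spp1 and Ibsp, which encode matrix sialoproteins, rose by 1.05 and 0.84, and 3 fell, among them Bmp3 and Dlx5 by 0.87 and 0.71. The call of Ibsp was lost without each of 9 single libraries (limma adjusted p up to 0.119, without injured library 3). The chondrocyte factor Sox9 rose by 1.52 ± 0.24 from a low level, with 0.724 to 2.71 scaled RPKM at 4 h and 0.246 to 0.655 in intact ulnas, and was the 1 gene called of 14 chondrocyte markers tested. Its change was 0.79 with an added value of 1.

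Among bone morphogenetic proteins, Bmp2, which starts fracture repair, had 9.11, 9.82, 9.61, 7.94 and 5.52 scaled RPKM at 4 h, and 2.77, 3.45 and 4.00 in intact ulnas. It rose without overlap by 1.24 ± 0.15 (limma adjusted p = 1.45e-06). The target genes Id1 and Smad7 and the antagonist Fst rose by 0.32 to 0.70, whereas Gdf10 and Bmp3 fell by 1.04 and 0.87, so 4 of 19 rose and 2 fell. In the TGF-beta list 4 of 12 rose and 2 fell, the falls being the ligands Tgfb3 and Tgfb2 at 0.49 and 0.43, and the call of Tgfb3 was lost without injured library 1 (limma adjusted p = 0.053). Of 6 osteoclast signals 3 rose and none fell, with Tnfsf11 (RANKL) at 1.42 ± 0.28, its decoy receptor Tnfrsf11b at 0.89 ± 0.21 and Csf1 at 0.58 ± 0.12, while among 14 osteoclast markers limma called none and 3 were higher at an unadjusted p under 0.05. In the insulin-like growth factor list Irs2 rose by 0.60, and Igfbp5, Igf1 and Irs1 fell by 0.62, 0.55 and 0.51, of 11 tested, with 2 rises without intact libraries 1 and 2. The calls of Igf1 and Irs1 were lost without injured library 1 (limma adjusted p = 0.0832 and 0.0746), that of Igf1 also without injured library 4 (0.0864) and that of Irs1 without injured library 3 (0.0527).

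Some genes that remodel the matrix rose. Of 18 proteases and inhibitors 8 rose and none fell, with a median of 0.51, and 11 rose without intact libraries 1 and 2. Adamts4, which cuts aggrecan, had 4.01, 4.99, 4.73, 3.23 and 1.32 scaled RPKM at 4 h, and 0.212, 0.516 and 0.809 as lowest, median and highest in intact ulnas. The groups did not overlap, with library 5 lowest of the injured ones. The log2 change was 2.54 ± 0.35 (limma adjusted p = 1.38e-05), or 1.55 with an added value of 1. The inhibitor Timp1 rose by 1.83 ± 0.22. Among hyaluronan and early wound matrix genes 7 of 16 rose and none fell, led by the synthase Has1 with 2.02 ± 0.18 (limma adjusted p = 3.44e-08) and the hyaluronan-binding Tnfaip6 with 1.47 ± 0.24. Intact libraries 1 and 2 were the 2 highest intact libraries for 8 of these 16, and the summed level was 1111 to 2880 scaled RPKM at 4 h, 3866 and 3176 in intact libraries 1 and 2 and 1031 to 2277 in the other 7. The list includes collagens, and its Col1a1 and Col1a2 are also osteoblast markers, so this sum and the osteoblast sum share genes. Without intact libraries 1 and 2, 7 members rose and none fell as well. Why these libraries stood apart was not tested.

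**Figure D3:**
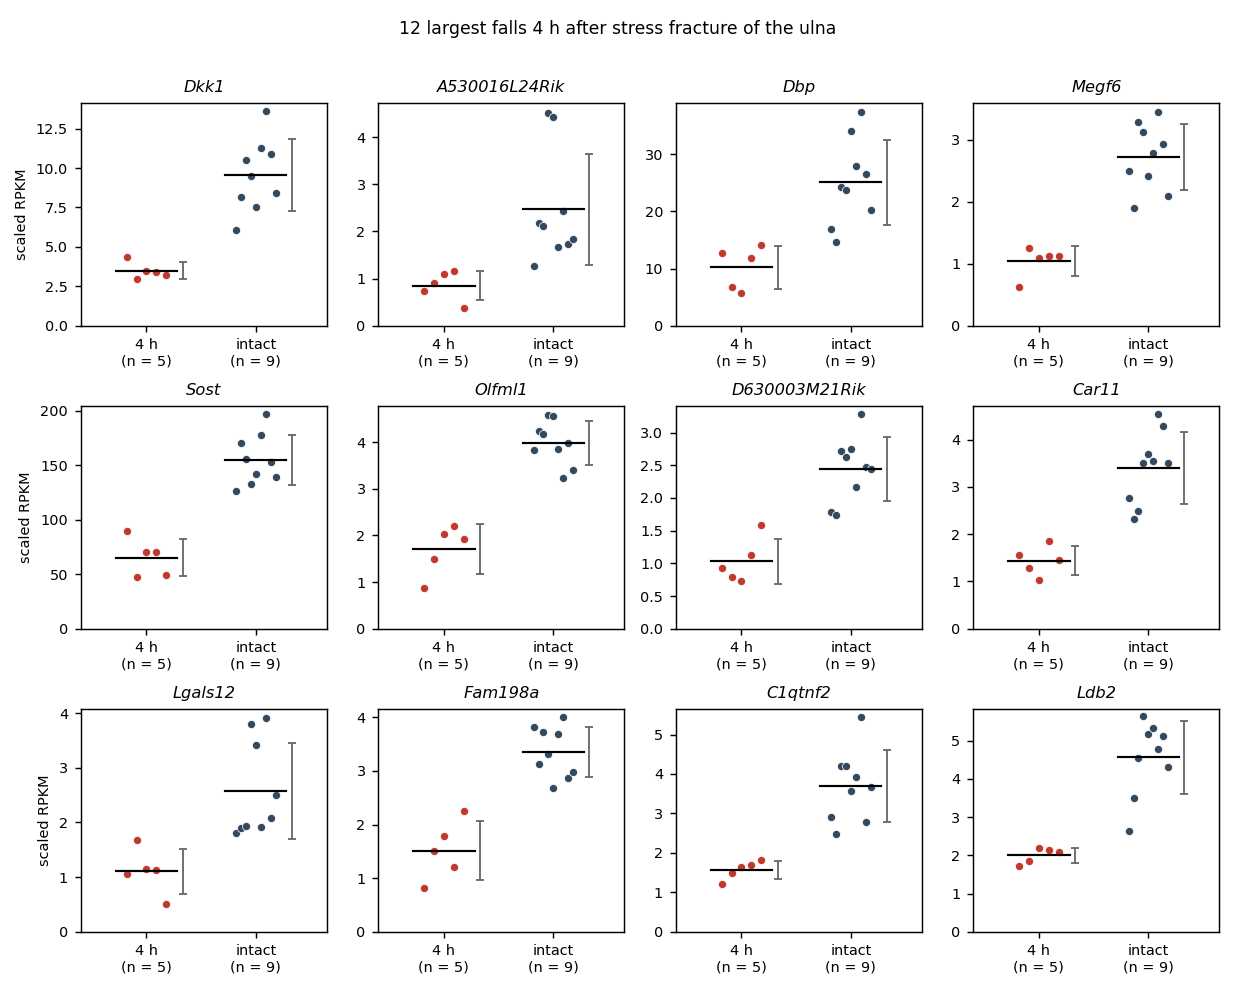
Scaled RPKM (linear axis from 0) of the 12 largest falls among called genes without overlap of the groups and with a mean of at least 2 scaled RPKM. Each dot is a library, with ulnas 4 h after stress fracture (n = 5) left of intact ulnas (n = 9), black lines at group means and grey bars of 1 SD. That all injured libraries lie below all intact ones was a condition of the choice. The mean of Sost is 65.3 scaled RPKM at 4 h and 155 in intact ulnas.

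The 12 largest falls without overlap, plotted beside each other as dots, were smaller than the rises, with log2 changes of -1.13 to -1.40. Besides Dkk1 and Sost they included Dbp, a clock output factor, Lgals12, a galectin of fat cells, Car11, Olfml1, C1qtnf2, Ldb2, Megf6, Fam198a, D630003M21Rik and A530016L24Rik. Megf6 had 0.616, 1.26, 1.09, 1.12 and 1.13 scaled RPKM at 4 h, and 1.89, 2.78 and 3.45 as lowest, median and highest in intact ulnas. The groups stood apart, and the log2 change was -1.31 ± 0.19 (limma adjusted p = 1.91e-05). With an added value of 1 the changes of 4 of the 12 were over 1.5 times smaller, at -0.86 for Megf6 and A530016L24Rik and -0.76 for D630003M21Rik and Lgals12. Dbp had 12.8, 6.74, 5.67, 11.9 and 14.1 scaled RPKM at 4 h, and 14.7, 24.3 and 37.4 in intact ulnas. Its gap was narrow, its log2 change was -1.31 ± 0.43 (limma adjusted p = 0.0448), and the adjusted p reached 0.143 when single libraries were left out (without injured library 3), with the call lost without each of 11. Per3, Hlf and Bhlhe41 of the clock list also fell, by 1.07, 0.97 and 0.64, and Cry1 rose by 0.29. Each of these 4 calls was lost when single libraries were left out, with the highest limma adjusted p without injured library 2 for Per3 (0.0833), without injured library 3 for Hlf (0.107) and Bhlhe41 (0.108) and without injured library 1 for Cry1 (0.143). Cry1 was also not called with RPKM as deposited (0.1) or under upper-quartile scaling (0.0669). The hour of day at which limbs were taken is not stated in the labels, and its part in these changes was not tested.

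Genes of the glucocorticoid response rose together, and intact libraries 1 and 2 stood apart in them. Of 12 members 9 rose and none fell, with a median log2 change of 1.28, and without these 2 intact libraries 11 rose with a median of 1.59. The summed level was 708 to 1781 scaled RPKM at 4 h, most of it from Mt2 and Pdk4 in each injured library. In intact ulnas it was 889 in library 2, 479 in library 1 and 181 to 297 in the other 7. Intact library 2 was the highest intact library for all 12 members, and libraries 1 and 2 were the 2 highest for 7. They were also the 2 highest for 5 of 7 tendon markers, where limma called none. Which animals these columns came from is not known, and why these libraries stood apart was not tested.

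Pdk4, the kinase that shuts off glucose oxidation in fasting and stress, had 152, 341, 218, 390 and 215 scaled RPKM at 4 h. In intact ulnas it had 157 and 172 in libraries 1 and 2 and 8.32 to 44.8 in the other 7. The groups overlapped through libraries 1 and 2 alone, and the log2 change was 2.98 ± 0.59 (limma adjusted p = 0.00103), or 3.67 without them. Fkbp5, a chaperone cofactor that curbs the glucocorticoid receptor, had 33.4, 41.7, 46.4, 48.3 and 19.7 scaled RPKM at 4 h, and 6.57, 8.18 and 52.3 as lowest, median and highest in intact ulnas, the highest again in library 2. It rose by 1.72 ± 0.32 (limma adjusted p = 0.000589), or by 2.18 without libraries 1 and 2. Zbtb16, a transcription factor induced by the hormone, had 45.6, 54.9, 61.1, 74.0 and 39.1 scaled RPKM at 4 h, and 13.8, 18.2 and 78.1 in intact ulnas. It overlapped in libraries 1 and 2 and rose by 1.19 ± 0.30 (limma adjusted p = 0.00998).

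**Figure D4:**
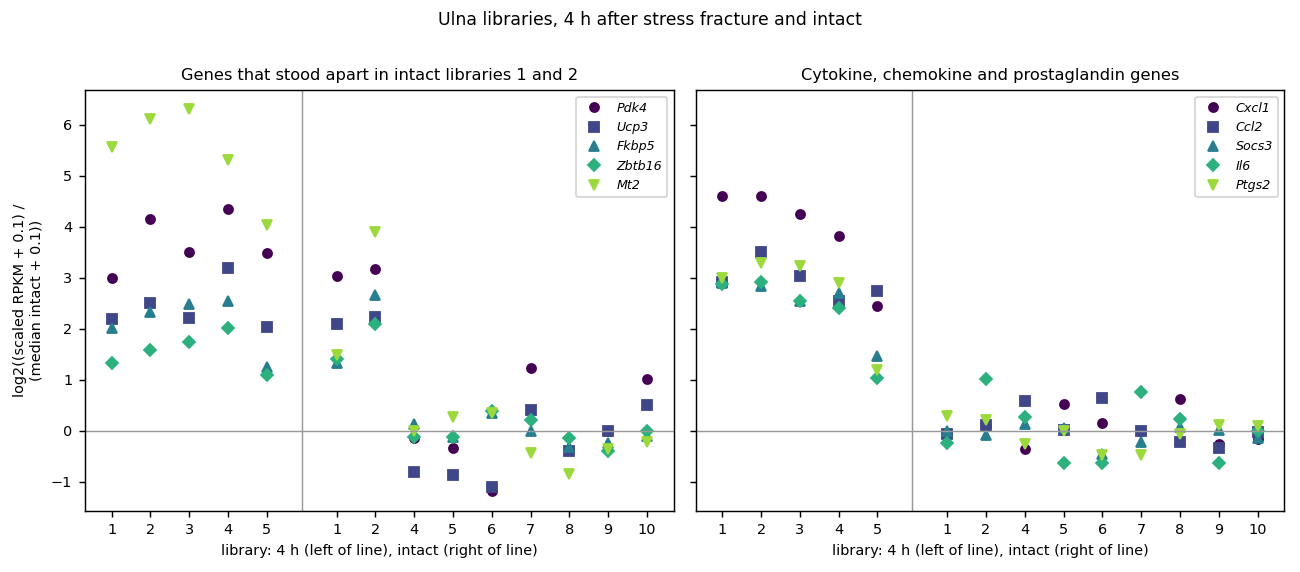
Log2 ratio of each library to the median intact ulna for 5 genes high in intact libraries 1 and 2 (left panel) and 5 cytokine, chemokine, feedback and prostaglandin genes (right panel), genes chosen after their values were seen. In both panels the 5 injured ulnas stand left of the 9 intact ulnas, and Pdk4 reaches 157 and 172 scaled RPKM in intact libraries 1 and 2 while Cxcl1 stays at or below 0.313 in all intact libraries.

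Some muscle genes of damage and stretch rose, while no general muscle marker was called. Among 15 skeletal muscle markers limma called none, and none passed an unadjusted p under 0.05. In the damage and regeneration list 7 of 14 rose and none fell, with a median of 0.99. Without intact libraries 1 and 2, 7 rose and Pax7, a factor of muscle stem cells, fell by 0.93 (limma adjusted p = 0.0119). Xirp1, which marks injured myofibres, had 111, 183, 69.1, 65.7 and 59.1 scaled RPKM at 4 h, and 8.51, 13.5 and 26.9 as lowest, median and highest in intact ulnas, without overlap and with a log2 change of 2.50 ± 0.33 (limma adjusted p = 7.57e-06). Ankrd1, a stretch-induced titin partner, had 107, 108, 52.4, 22.1 and 16.1 scaled RPKM at 4 h, and 4.41, 9.27 and 15.0 in intact ulnas. Injured library 5 was just above the highest intact library, and the log2 change was 2.30 ± 0.43 (limma adjusted p = 0.00055). The myogenic factors Myod1 and Myf6 rose by 1.25 ± 0.33 and 1.00 ± 0.21, and the call of Myod1 was lost without injured library 1 or 2 (limma adjusted p = 0.0576 and 0.0681). Injured library 4 had the highest sum of muscle markers, 29506, and the highest Pdk4, and the part of muscle carried with the bone in these changes was not tested.

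Some stress genes rose. Of 14 genes of the unfolded protein and amino acid response 4 rose, with Atf4 at 0.49 ± 0.08. Only Atf4 kept its call without each single library, and the others reached a limma adjusted p of up to 0.205, without injured library 1. Of 13 inducible heat shock genes 5 rose and none fell, with Hspb1 at 1.25 ± 0.23. The calls of Cryab and Hspa8 were lost when single libraries were left out (limma adjusted p up to 0.137 and 0.159). Hspa1a rose by 0.80 ± 0.22, but its reads are hard to separate from those of its near-identical copy Hspa1b. Its call was lost without injured library 2 (limma adjusted p = 0.0801), and it changed by 0.44 with an added value of 1. In the glycolysis and hypoxia list Pfkfb4 and Hilpda rose by 0.77 and 0.59 and Ndrg1 fell by 0.40, of 18 tested, and the call of Hilpda was lost without injured library 1, 2 or 3 (limma adjusted p = 0.108, 0.102 and 0.0633). Angptl4, an inhibitor of lipoprotein lipase, rose by 1.90 ± 0.43, one of 3 rises and 1 fall among 14 angiogenic factors and receptors (2 falls without intact libraries 1 and 2). Of 15 genes of the YAP, SRF and stretch list 5 rose, among them Ctgf by 1.58 ± 0.31, Thbs1 by 0.76 ± 0.15 and Edn1 by 0.77 ± 0.22. The call of Edn1 was lost without injured library 3 (limma adjusted p = 0.0759), and it changed by 0.48 with an added value of 1.

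No list of blood cell markers other than macrophages had a member called. Among 15 neutrophil markers limma called none, with 1 higher and 1 lower at an unadjusted p under 0.05 and a median log2 change of -0.20. Nor were any called among 12 T and NK cell, 11 B cell, 11 erythroid, 8 platelet and 7 mast cell markers, and none of these 49 passed an unadjusted p under 0.05. Over all 20506 genes tested, 2328 were higher and 2365 lower at this unadjusted threshold. Of 15 macrophage markers Cd14, the co-receptor for endotoxin, rose by 1.13 ± 0.21 and the scavenger receptor Msr1 by 0.93 ± 0.19, of 3 that rose. Of 12 endothelial markers the adhesion molecules Sele and Selp rose by 0.65 and 0.51 and Tek fell by 0.31. Selp was no longer called without intact libraries 1 and 2 (limma adjusted p = 0.0909), without each of 10 single libraries (up to 0.171, without injured library 1), with RPKM as deposited (0.106) or under upper-quartile scaling (0.0634). The call of Sele was lost without injured library 2 (0.051), and that of Tek without each of 5 single libraries (up to 0.101, without injured library 2). Cell cycle (18 genes), oxidative phosphorylation (15) and interferon response genes (15) had no call by limma, and at an unadjusted p under 0.05 only 1 interferon gene, lower at 4 h, passed. Of 11 adipocyte markers Plin4 rose by 0.92 and Pck1 and Plin1 fell by 1.60 and 1.56. The call of Pck1 was lost without injured library 1 or 5 (limma adjusted p = 0.119 and 0.0846), and that of Plin1 without injured library 5 (0.053). Of 8 Schwann cell markers S100b fell by 0.66. Among 7 tendon markers 1 was higher and 1 lower at an unadjusted p under 0.05 with none called by limma (1 rise without intact libraries 1 and 2). Of 7 keratinocyte markers, where Krt14 and Krt15 were listed at 0 in all 14 libraries, 3 were tested with none called and 1 lower at an unadjusted p under 0.05 (1 fall called without intact libraries 1 and 2).

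The 4 h ulnas were also set against ulnas at 1 d after stress fracture. Of 20506 genes, 798 were higher at 4 h than at 1 d (3.89%) and 1486 were lower (7.25%) by limma. Without 1 d library 2, these counts were 501 and 864. The comparison uses the same 5 injured ulnas as the one with intact ulnas. Among the genes called at 4 h against intact with at least 2 scaled RPKM, the largest excess over 1 d was in Ucp3, a mitochondrial carrier of muscle. It had 38.7, 48.5, 39.7, 78.2 and 35.1 scaled RPKM at 4 h, and 3.98, 9.22, 3.44 and 6.57 at 1 d. All libraries at 4 h were above all at 1 d, and the log2 difference was 3.07 ± 0.53 (limma adjusted p = 0.000289). In intact ulnas Ucp3 had a lowest, median and highest value of 3.90, 8.45 and 40.3, with libraries 1 and 2 highest.

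Pdk4 had 14.0 to 61.1 scaled RPKM at 1 d, so that 4 h was higher by 2.91 ± 0.71 (limma adjusted p = 0.00711). Fam107a, Lvrn, Mt1 and Timp4 were higher at 4 h than at 1 d by 2.46, 2.28, 2.15 and 2.04. Of 12 glucocorticoid response genes 8 were higher at 4 h than at 1 d and none was lower, with a median difference of 1.10, and of 20 genes of the Egr and Nr4a list 10 were higher and 1 lower. Monocyte chemokines went the other way, with 5 of 14 lower at 4 h than at 1 d and none higher. Ccl7 averaged 2.93 ± 1.39 scaled RPKM at 4 h (SD, n = 5) and 11.7 at 1 d (n = 4), a log2 difference of -2.05 (limma adjusted p = 0.0107), and Ccl2 was lower by 1.59 on that scale (limma adjusted p = 0.00514). Also lower at 4 h were the progenitor transcription factor Prrx2 (-2.17), the apelin receptor Aplnr (-2.09), Crabp1 (-1.98), Megf6 (-1.84) and the protease Mmp3 (-1.68). The calls against intact ulnas were lost when single libraries were left out for Lvrn (limma adjusted p up to 0.0968, without injured library 3), Timp4 (0.114, without injured library 4) and Aplnr (0.0629, without injured library 4). With an added value of 1, the difference from 1 d was 1.42 for Lvrn and -1.25 for Crabp1. Cxcl1, Socs3, Tnfrsf12a and Wnt1 had differences of 0.01 to 0.48 between these times, none called by limma.

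The change in the ulna was then set against that in the femur 4 h after full fracture. Bone, kind of injury and the spinning out of marrow differ together, so they cannot be told apart. With both bones in 1 limma fit of 21092 genes, the change in the ulna was higher than that in the femur for 3846 genes (18.2%) and lower for 3757 (17.8%). The median change of all genes was -0.00 in the ulna and -0.06 in the femur. These values rest on the same ulna libraries as above.

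**Figure D5:**
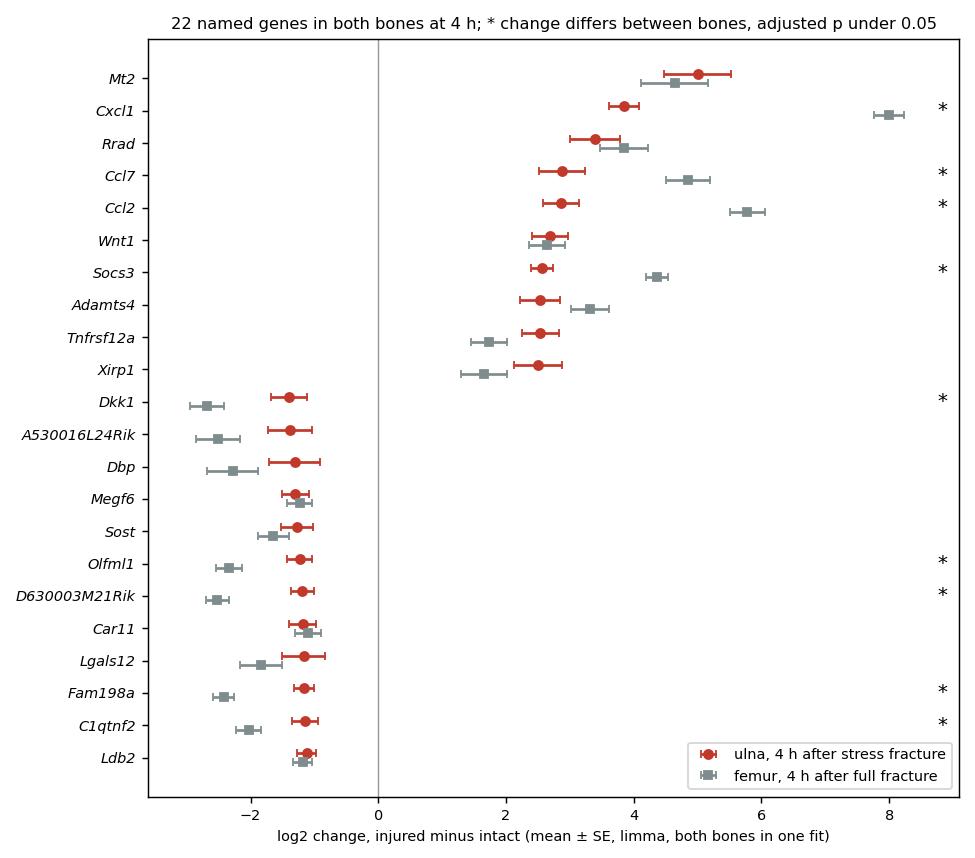
Log2 change at 4 h (injured minus intact, ± SE, both bones in 1 limma fit) of 10 of the 12 largest rises and of the 12 largest falls without overlap of the groups in the ulna. Circles mark the ulna after stress fracture and squares the femur after full fracture, with an asterisk where the change differs between bones. Cxcl1 shows the widest gap, -4.15 as ulna minus femur, and Mt2 and Wnt1 lie close together.

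Inflammatory and immediate early genes had lower log2 changes in the ulna than in the femur (ulna minus femur below 0). Cxcl1 rose by 3.88 in the ulna and by 8.0 in the femur, where it had 70.2, 105 and 138 scaled RPKM as lowest, median and highest at 4 h and 0.194, 0.292 and 0.554 in intact femurs. The difference was -4.15 ± 0.32 (limma adjusted p = 1.22e-15). Among genes called in the ulna with at least 2 scaled RPKM, Cd14 gave the largest negative difference, with -4.49 ± 0.29 (limma adjusted p = 5.38e-19), followed after Cxcl1 by Il1b (-3.89), Fosb (-3.86), the unclassified transcript Gm37347 (-3.32) and Plaur (-3.23), the urokinase receptor. All 14 genes of the NF-kB and cytokine feedback list had a lower change in the ulna by this test, with median changes of 0.29 in the ulna and 1.94 in the femur. So did 7 of 8 AP-1 and ATF genes, with medians of 1.67 in the ulna and 3.75 in the femur, and 14 of 20 Egr and Nr4a genes, with 0.75 and 2.34. Of 15 neutrophil markers 9 had a lower change in the ulna, with medians of -0.20 in the ulna and 1.30 in the femur, and of 18 cell cycle genes 17 did, with medians of -0.06 in the ulna and 1.28 in the femur.

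For other genes the difference between bones did not pass the test or was above 0. Mt2 rose by 5.00 in the ulna and 4.64 in the femur, a difference of 0.37 (limma adjusted p = 0.739), and Wnt1 differed by 0.05 (limma adjusted p = 0.943). A p above the threshold does not show equal changes, and the plot of both bones shows the standard error of each change. The glucocorticoid list had medians of 1.28 in the ulna and 1.89 in the femur, with a higher change in the ulna for 1 gene and a lower one for 4 of 12. The change of Pdk4 was higher in the ulna by 2.22 ± 0.73 (limma adjusted p = 0.0133). In femurs it had 101, 195 and 467 scaled RPKM as lowest, median and highest at 4 h and 55.4, 146 and 324 when intact, so the femur groups overlapped widely.

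Ppp1r3c, a glycogen-targeting subunit, and Ankrd2, a muscle stretch gene, had higher changes in the ulna by 2.19 and 2.09, and the homeobox gene Meox2, which fell in both bones, did so by 2.13 less in the ulna. The widest positive differences, 5.00 for Traj22, a T cell receptor joining segment, and 3.91 for the miRNA gene Mir1970, rest on 1 to 5 and 3 to 10 reads in injured ulnas, and were 1.83 and 1.77 with an added value of 1. The 4 h call of Ppp1r3c was lost without injured library 4 (limma adjusted p = 0.0824), and that of Mir1970 without each of 8 single libraries (up to 0.108, without injured library 3). Of 19 loading response genes the change as ulna minus femur was above 0 for 9 and below 0 for 2 by this test, with medians of 0.04 in the ulna and -0.74 in the femur. Dkk1 fell in both bones, with log2 changes of -1.40 in the ulna and -2.68 in the femur, and the difference of 1.28 passed the test (limma adjusted p = 0.00719). Sost fell by 1.27 in the ulna and by 1.64 in the femur, a difference of 0.37 that did not pass (limma adjusted p = 0.434).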

How the data were processed

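RNA of ulna sections (5 right limbs at 4 h after stress fracture and 9 intact left limbs) was compared, with 4 ulnas at 1 d and the femurs at 4 h beside them. Per the submitters' processing notes, the authors used STAR 2.4.2a, Subread and featureCounts 1.4.6 on mm10 and DESeq2 for testing, and they do not say whether counting used strand. The authors deposited RPKM, and per the file headers their own tests as log2 fold changes with adjusted p-values. The time of each table comes from the names of its sheets.

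From the deposited RPKM, 27 names turned into dates (0.105% of ulna RPKM) were left out. Values were scaled by median of ratios, the filter kept genes reaching 0.5 scaled RPKM in 5 or more libraries, and limma 3.58.1 (R 4.3.3) was run on log2(scaled RPKM + 0.1) with trend and robust variance, all ulna libraries sharing the spread. Benjamini-Hochberg adjustment covered all genes tested, with a threshold of 0.05. The p-values measure the spread between samples. Depth was recovered from the steps of low values with GENCODE M21 lengths, where 88.8% to 90.3% of values came out whole within 0.01 in the 14 libraries. Alternatives were other scalings, filters and added values and each library left out.

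The genes and the 47 lists (588 genes, 561 tested) were chosen with earlier results of these data known. Named were the 12 largest rises and falls without overlap and with at least 2 scaled RPKM, the 6 largest differences each way from 1 d and from the femur among genes called at 4 h, and list members, called ones first. Promoters of named genes that rose at least 4-fold could be printed, and only those of Mt2, Cxcl1, Il6 and Socs3 were, with Mt1 added. Also within the rule but not printed were Wnt1, Atf3 and Nr4a3, each with 1 metal response core. The same holds for Fosb, with 1 NF-kB match, and Tnfrsf12a, with no match. Values of near-identical copies (Hspa1a and Hspa1b, hemoglobin and Bglap genes) are uncertain. Some single genes that belong to these counts are not reported here.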

Additional observations from a re-analysis of the deposited data

Results flagged for a closer look

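Single libraries lay far from the rest of their group in 5 of 70 groups of libraries examined, where chance gives about 1 in 20 groups. In injured ulnas these were Socs3 in library 5 with 19.5 scaled RPKM, Dusp1 in library 5 with 28.7 and Megf6 in library 1 with 0.616. In intact ulnas these were Mt2 in library 2 with 193 scaled RPKM and Cdkn1a in library 2 with 20.

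The change at 4 h differed between the ulna and the femur by the limma test of the difference for 11 of 24 genes. These were the genes with the largest changes in the ulna without overlap of the groups. Over all 21092 genes, 18.2% had a higher and 17.8% a lower change in the ulna by the same test. Of the 11, 9 are given here. As ulna minus femur on the log2 scale, it was lower in the ulna for Cxcl1 (-4.15), Ccl2 (-2.92), Ccl7 (-1.98) and Socs3 (-1.81). It was higher in the ulna, where the fall was smaller than in the femur, for D630003M21Rik (1.33), Dkk1 (1.28), Fam198a (1.27), Olfml1 (1.11) and C1qtnf2 (0.88). Bone, injury and marrow removal cannot be told apart in these differences.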

How the results depend on the processing

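No paired analysis was possible because the column names do not tie limbs to animals, and the planned comparison with intact ulnas of 4 h animals alone could not be run for the same reason. For the 24 genes with the largest changes at 4 h without overlap of the groups, 515 of 528 alternative values kept direction and call. None reversed, and the 13 others were all Dbp, no longer called. Absence of overlap was a condition of the choice of these genes, so their calls say little about those of other genes. Of 164 list members called, 44 lost the call when some single library was left out. Among 12 genes named for 1 d, 130 of 132 values were kept (Crabp1 lost its call in 2). Among 12 named for the femur, 96 of 96 were kept, with no femur library left out. Counts moved more. With RPKM as deposited 744 genes were higher at 4 h, against 1129. Leaving out single libraries gave 783 to 1316 genes higher and 747 to 1167 lower, 114 to 153 list members higher and 15 to 27 lower (15 without injured library 1, against 25). Against 1 d the counts were 501 to 810 higher and 864 to 1438 lower, the lowest of both without 1 d library 2. For the ulna against the femur, where only injured ulnas were left out singly, they were 3352 to 3656 higher and 3458 to 3681 lower. In each case the cause was not tested. The removal of intact libraries 1 and 2 together was added after the data were seen. An added value of 1 in place of 0.1 held down changes of low genes, as in Cxcl1 with 2.13 against 3.88. Depth limits genes at a few reads, such as Traj22 and Mir1970.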

Other observations

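Several genes outside the lists, chosen after their values were seen, also rose at least 4-fold. Serpina3n, an acute phase protease inhibitor, had 14.3, 39.7, 41, 21.7 and 5.57 scaled RPKM at 4 h, and 1.75, 2.49 and 8.11 as lowest, median and highest in the 9 intact ulnas, with a log2 change of 2.83 ± 0.37 (SE, limma adjusted p = 6.05e-06). Injured library 5 lay below intact library 2, so the groups overlapped. Prg4, the lubricant of joint surfaces and tendon sheaths, had 21.1, 28.1, 35.9, 21.0 and 10.8 scaled RPKM at 4 h, and 1.53, 2.29 and 19.3 in intact ulnas, with a change of 2.74 ± 0.48 (limma adjusted p = 0.000268). Intact library 2 was again the high one. The serum amyloid genes Saa3 and Saa1 stayed low, averaging 1.32 and 0.836 scaled RPKM at 4 h and 0.0923 and 0.0405 in intact ulnas. Of the 40 genes that rose at least 4-fold, 13 averaged under 2 scaled RPKM at 4 h, several of them small RNAs or T cell receptor segments.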
